A study of Homo sapiens with 4 samples.

Results

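The subject is a small population of host cells recovered from tumours of a human breast cell line grown in mouse mammary fat pads: mouse mononuclear cells with high transcript levels of the major histocompatibility complex (MHC) class II genes, called class II-high cells here. They were chosen by transcript shares, not by clustering. A barcode was taken when at least 0.9 of its gene UMIs (unique molecular identifiers, single captured transcripts) were on mouse genes, it had at least 2000 of them and at most 0.2 of its mouse UMIs were mitochondrial. It then needed at least 1% of its mouse UMIs on Cd74, H2-Aa, H2-Ab1 and H2-Eb1 and at least 1 UMI of Csf1r, the colony-stimulating factor 1 receptor of monocytes and macrophages. Left out were cells with 3% or more S100a8 and S100a9 (neutrophil genes), with 0.2% or more C1qa, C1qb and C1qc, with 0.2% or more Arg1 and Mmp12, or with over 1 UMI of the dendritic genes Flt3, Zbtb46, Xcr1, Clec9a and Ccr7. The rule left 203 cells of 8937 depth-passed mouse cells in the aged pool and 161 of 8353 in the young pool, 364 of 17290 in all.

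Both pools came from tumour and adjacent stroma in the mammary region of Rag1-/- recipients, which lack mature T and B cells, 4 weeks after implantation. Each implant was decellularised murine mammary extracellular matrix (dECM), the scaffold left after cells are washed out of a tissue, on which MCF10DCIS.com cells, a human line that models ductal carcinoma in situ, had grown for 12 days. In the aged group the matrix donors were 18 months or older, and in the young group 2 to 3 months. The age is that of the matrix donor, not of the host, whose age the labels do not give, and the design text places either kind of matrix on one side or the other of shared mice. Dead cells were removed and the cells were labelled with human hashing antibodies before droplet capture. With a single library on each side, differences between the pools carry no test. Intervals below are exact, cover counting error only, and say nothing of the spread between animals.

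Monocytes leave the blood through the chemokine receptor Ccr2, and in inflamed or tumour-bearing tissue many of them switch on class II genes before, or instead of, becoming long-lived macrophages. Class II molecules present peptides from ingested protein to CD4+ T cells: H2-Aa, H2-Ab1 and H2-Eb1 encode the chains, Cd74 the invariant chain that guards the groove, the H2-DM genes the peptide loader, and Ciita the transcriptional master of the set. Rag1-/- hosts lack the T cells that read these complexes.

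The threshold on class II cut a continuous distribution. Among cells meeting every other step, 572 aged-pool and 472 young-pool cells had under 0.75% of their UMIs on the 4 class II genes, 14 and 14 had 0.75 to 1%, just outside, and 17 and 10 lay just inside, at most 0.25 points above 1%. Within the class II-high cells the share had a median of 2.65% in the aged pool (highest 9.41%) and 2.38% in the young pool (highest 9.05%). Cd74 made up 44.7% and 46.1% of these class II UMIs in aged-pool and young-pool cells, H2-Aa 20.8% and 21.1%, H2-Ab1 20.2% and 20.03%, and H2-Eb1 14.3% and 12.8%. These values chose the cells and are given as a description. At the other borders, 50 and 36 members had exactly 1 Csf1r UMI, 9 and 12 had 1 UMI of a dendritic gene, and 8 and 3 cells were left out for having 2.

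Class II-high cells were 2.27% of depth-passed mouse cells in the aged pool (95% interval 1.97 to 2.60) and 1.93% in the young pool (1.64 to 2.25), a ratio of 1.18. Most depth-passed cells carried 3% or more S100a8 and S100a9, 64.9% in the aged pool and 71.4% in the young pool. Over the remaining 3137 and 2389 cells the shares were 6.47% and 6.74%, a ratio of 0.960, so the order of the pools turned with the denominator. No direction is read from it. Depth was close, with medians of 7341 and 7193 UMIs and 2253 and 2207 genes per cell and 1650089 and 1282384 UMIs summed over the aged-pool and young-pool members. The 2 libraries shared 190 barcode names of 17757 and 16965, and 1 aged-pool and 1 young-pool member carried a name found among all barcodes of the other library, neither of them a member there.

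The label monocyte-derived was checked against marker lists. All 6 markers given for the population were above 20 CPM (counts per 1000000, here mouse UMIs of the summed cells) in both pools. This cannot check the label. All but 2 of the 6 were genes of the rule, and the level of 20 CPM did not set the cells apart. All 6 also passed it in C1q-high macrophages and in cells with dendritic genes, both described below, and 5 in neutrophil-transcript-rich cells. The 2 outside the rule were Ccr2 and Ms4a4c, a membrane protein of monocytes. Ccr2 stood at 926 and 799 CPM in aged-pool and young-pool cells and Ms4a4c at 543 and 643 CPM. Ccr2 had a UMI in 91.1% and 89.4% of the cells. With every cell thinned to 2000 UMIs this was 72.9% and 63.4%, against 1.41% and 1.44% of the neutrophil-transcript-rich cells, which should lack it and had medians of 2867 and 2978 UMIs. The classical monocyte list (8 genes) summed to 3778 and 3758 CPM and the macrophage list (9 genes, C1q genes included) to 9347 and 8429.6 CPM. Fcgr1, the high-affinity IgG receptor of monocytes and macrophages, was at 263 and 243 CPM.

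In aged-pool and young-pool members, the T cell list summed to 5.45 and 8.58 CPM, the NK list to 23.6 and 16.4, the B cell list to 52.7 and 34.3, the endothelial list to 30.3 and 42.1 and the migratory dendritic list, whose Ccr7 the rule limits, to 10.3 and 4.68 CPM, and all 4 erythroid genes were at 0. The neutrophil list reached 2292 and 2630.3 CPM although the rule limits it, against 172201 and 177827 CPM in neutrophil-transcript-rich cells. The fibroblast list was uneven between the pools, at 136 and 824 CPM. The conventional dendritic cell list cDC2 summed to 215 and 215 CPM, most of it Cd209a and Mgl2, which the rule did not use. The cDC1 list summed to 211 and 201 CPM, most of it Irf8 at 164 and 162 CPM, and the plasmacytoid list to 110.3 and 85.8 CPM, most of it the interferon-induced Bst2 at 64.2 and 83.4 CPM. A subset described with the clusters carried the cDC2 genes with hardly any Apoe or Ms4a7, and for those cells the data go against the label. The cDC1 list of that subset, at 202 and 237 CPM, was near that of all members. Its plasmacytoid list, at 44.3 and 59.2 CPM, was below that of all members.

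Next, 3 like classes were set beside the class II-high cells: C1q-high macrophages (425 and 332 cells in the aged and young pools), Ly6c2 monocytes (197 and 182 cells, class II under 1% and at least 2 Ly6c2 UMIs) and cells that met the class II step with 2 or more UMIs of dendritic genes (27 and 10 cells). These classes were cut with class II, C1q, Ly6c2 and dendritic genes, so levels are a description and none is a test. Of 2506 genes outside the rule with at least 50 CPM in the members of both pools and 100 UMIs in all, 87 (3.47%) were at least 2-fold above C1q-high macrophages in both pools and 68 (2.71%) at least 2-fold above Ly6c2 monocytes. Of the genes that passed the same filter in the like class, 111 of 2598 (4.27%) were 2-fold above the members in C1q-high macrophages and 56 of 2552 (2.19%) in Ly6c2 monocytes.

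The genes furthest above C1q-high macrophages included several of blood monocytes. Plac8, a gene of circulating monocytes and granulocytes, was at 1908 and 1925 CPM in aged-pool and young-pool members and 229 and 180.3 CPM in the macrophages, 8.32-fold in the aged pool and 10.7-fold in the young pool. S100a4, a calcium-binding protein of motile cells, was at 1214 and 1374 CPM in members against 272 and 219 CPM in the macrophages. Ltb4r1, the leukotriene B4 receptor, was at 139 and 146 against 15.8 and 17.6 CPM, Ifitm6 at 112 and 120.1 against 15.8 and 8.53 CPM, and Hp, haptoglobin, at 241 and 227 against 37.8 and 34.7 CPM. F10, coagulation factor X, was at 173 and 122 against 17.1 and 29.5 CPM, and Plbd1, Mcemp1, Gpr141 and Napsa completed the 12 largest together with Ly6c2 and Cd209a. Cd209a, a C-type lectin of dendritic cells, had the largest fold of all, 113 and 103 CPM against 1.54 and 1.10 CPM, from 187 and 132 UMIs in members and 7 and 4 in macrophages. Of the members' Cd209a UMIs, 153 and 74 lay in subset 4, described with the clusters.

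The genes with the largest folds the other way were these. Ccl8, a chemokine of tissue macrophages, was at 4.24 and 5.46 CPM in aged-pool and young-pool members against 463 and 453 CPM in C1q-high macrophages. Gpnmb, a lysosomal glycoprotein of lipid-laden macrophages, was at 1.21 and 2.34 against 95.4 and 124 CPM, and Fabp5, a fatty acid binding protein, at 94.5 and 207 against 3214 and 3653 CPM. Vcam1 was at 4.85 and 2.34 against 78.2 and 88.9 CPM and Ctsk, the collagen-cleaving cathepsin K, at 12.7 and 14.8 against 177 and 151 CPM, with Cadm1, Serpinb6a and Igfbp4 beside them. Apoe, the lipid carrier that macrophages make in quantity, was intermediate at 8787 and 7948 CPM, below 31088 and 29059 CPM in C1q-high macrophages and above 2622 and 2488 CPM in Ly6c2 monocytes. Of 23 measured macrophage differentiation genes, 16 were at least 2-fold below C1q-high macrophages in both pools, and 12 of 18 classical monocyte genes were at least 2-fold above them. Of 14 measured lipid handling genes, 7 were 2-fold below and 2 above C1q-high macrophages, and of 21 matrix and protease genes 3 were below and 5 above. Over all genes that passed the filters given above, 4.27% were 2-fold below and 3.47% above.

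Against Ly6c2 monocytes, 9 of 15 measured class II presentation genes, a list that holds the 4 of the rule, were at least 2-fold higher in class II-high cells in both pools and none was 2-fold lower. H2-DMb1 was at 487 and 590.3 CPM in aged-pool and young-pool members against 30.5 and 20.2 CPM in the monocytes, H2-DMb2 at 128 and 137 against 11.4 and 6.53 CPM and Ciita at 70.9 and 85.0 against 7.24 and 5.34 CPM. Cd72, a lectin-like receptor of antigen-presenting cells, was at 104 and 137 against 6.73 and 5.94 CPM, and Itgax, which encodes CD11c, at 92.7 and 99.8 against 7.76 and 11.9 CPM. Slamf9, Bcl2a1a, Rgs1, Pltp and Cd209a were also among the 12 largest. Mrc1, the mannose receptor, was at 152 and 105 against 4.66 and 18.4 CPM, and Cxcl16, a chemokine and scavenger receptor, at 530.3 and 611 against 88.0 and 109 CPM. Of the macrophage differentiation list, 9 of 23 measured genes were at least 2-fold above the monocytes in both pools, and of the monocyte-derived dendritic list 7 of 16. Over all 2506 genes that passed the filter given above, 2.71% were.

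Other genes were far lower in class II-high cells than in Ly6c2 monocytes. Prtn3, the proteinase 3 of granule-bearing precursors, was at 10.9 and 7.80 CPM in aged-pool and young-pool class II-high cells against 204 and 198 CPM in Ly6c2 monocytes. Mmp8, neutrophil collagenase, was at 13.3 and 14.8 against 137 and 175 CPM, Mgst1 at 49.7 and 41.3 against 424 and 450.1 CPM, and Chil3, a chitinase-like protein of classical monocytes, at 26.7 and 46.0 against 245 and 287 CPM. Wfdc21, Hp and Slpi were also among the 8 largest. Over all genes that passed the filter given above, 2.19% were at least 2-fold below Ly6c2 monocytes in both pools. Of 18 classical monocyte genes, 8 were, Vcan among them at 73.3 and 75.6 against 351 and 299 CPM. Ccr2 was not, at 926 and 799 CPM in members and 1067 and 1164 CPM in the monocytes.

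The cells with dendritic genes were few, so only the levels are given, and the lowest young-pool levels there rest on 1 or 2 UMIs. The makeup of these cells also differed between the pools. In aged-pool and young-pool cells the migratory dendritic list summed to 494 and 0 CPM and the plasmacytoid list to 71.1 and 2017 CPM. Fn1, fibronectin, was at 846 and 816 CPM in aged-pool and young-pool class II-high cells and 35.6 and 22.8 CPM in cells with dendritic genes, Lyz2, lysozyme of myeloid cells, at 7472 and 6648 against 830 and 1083 CPM, and Apoe at 8787 and 7948 against 1273 and 114 CPM. Msr1, a scavenger receptor, was at 253 and 232 against 19.8 and 11.4 CPM and Klf4, a transcription factor of monocytes, at 356 and 301 against 39.5 and 57.0 CPM. The reverse held for Irf8, a transcription factor needed by dendritic cells, at 164 and 162 CPM in members against 597 and 866 CPM in cells with dendritic genes. Cst3, cystatin C, was at 3330.1 and 3520 against 11311 and 9711 CPM. Of the genes measured as above, 141 (5.63%) were at least 2-fold higher in the members in both pools and 15 of 435 (3.45%) at least 2-fold higher in the cells with dendritic genes.

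**Figure D1:**
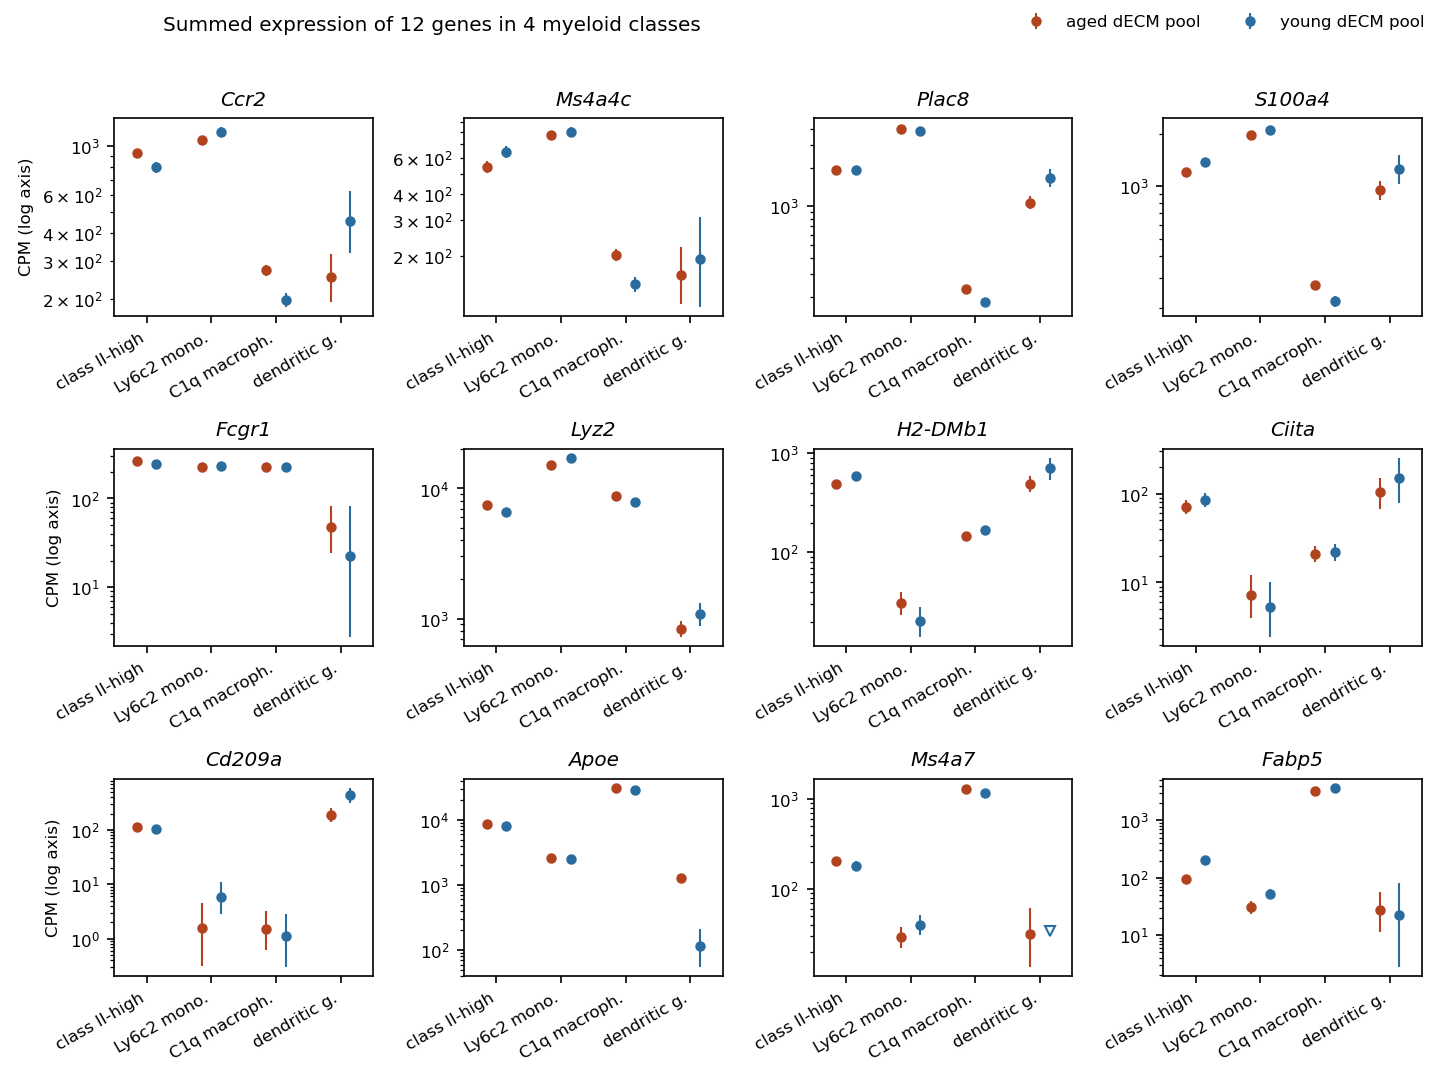
Summed level of 12 genes in CPM (log axis) in class II-high cells, Ly6c2 monocytes, C1q-high macrophages and cells with dendritic genes, for the aged pool (left point of each pair) and the young pool (right point). Bars are exact 95% Poisson intervals and the open triangle is the limit of 3 UMIs where none was counted. Class II-high cells sat near the monocytes in Ccr2 and Ms4a4c, above the monocytes and the macrophages in H2-DMb1, Ciita and Cd209a, and between the monocytes and the macrophages in Apoe, Ms4a7 and Fabp5.

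Inflammatory transcripts were abundant in the class II-high cells, though not all of them were higher there than in the classes beside them. Il1b, interleukin 1 beta, was at 8050.5 and 8535 CPM in aged-pool and young-pool members, against 5689 and 5739 CPM in Ly6c2 monocytes and 3357 and 3931 CPM in C1q-high macrophages. The neutrophil-transcript-rich cells, most of the captured cells, were at 16021 and 16703 CPM, and the part of their free RNA in the members' level was not tested. Cxcl2, a neutrophil-attracting chemokine, was at 6383 and 5107 CPM, Ptgs2, which encodes cyclooxygenase 2, at 794 and 716 CPM and Ccl4 at 831 and 539 CPM. Ccl4 was higher in C1q-high macrophages, at 1180 and 864 CPM, and in neutrophil-transcript-rich cells, at 1437 and 1222 CPM. In Ly6c2 monocytes it was at 319 and 556 CPM. The part of free RNA in these levels was not tested either. Cd14, the endotoxin co-receptor, was at 1910.2 and 1658 CPM, the pattern receptor Clec4e at 690.3 and 581 CPM and the inflammasome sensor Nlrp3 at 564 and 414 CPM. Of costimulation and checkpoint genes, Cd86 was at 183 and 200.4 CPM, Cd83 at 252 and 246 CPM and Cd274, which encodes the checkpoint ligand PD-L1, at 51.5 and 51.5 CPM. Immediate early genes, which also respond to tissue dissociation, were well detected, with Fos at 1757 and 1758 CPM and Junb at 1985 and 1956 CPM.

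How the cells varied along class II itself was read in 3 ranges of the class II share: 1 to 2% (57 aged-pool and 56 young-pool cells), 2 to 4% (103 and 76) and 4% or more (43 and 29). The ranges are cuts of a continuous measure, with 10 and 11 cells within 0.1 points of 2% and 11 and 7 within 0.2 points of 4%. The CPM here are over UMIs outside the 4 class II genes. H2-DMb1 went up with the range in both pools, at 204, 572 and 784 CPM in the aged pool and 348, 665 and 997 CPM in the young pool. Ciita was at 42.1, 64.1 and 150.5 CPM in the aged pool and 42.1, 99.9 and 148 CPM in the young pool. H2-DMa was at 638, 691 and 822 CPM in the aged pool and 596, 785 and 1082 CPM in the young pool.

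Of the 25 genes followed over the ranges, these 3, Mgl2 and Cxcl16 climbed with class II in both pools, and Plac8 was lower at each step. Mgl2, a galactose-binding lectin of dendritic cells and some macrophages, was at 2.11, 61.7 and 178 CPM over the 3 ranges in the aged pool and 4.67, 66.6 and 89.7 CPM in the young pool, from 1 and 2 UMIs in the lowest range. Few cells carried it: 5.83% and 3.95% of aged-pool and young-pool cells had a UMI at 2 to 4%, and 20.9% and 27.6% at 4% or more. Of its UMIs, 80 in the aged pool and 47 in the young pool lay in subset 4, described with the clusters. The median class II share of that subset was 3.91% and 3.76%, above that of all members. Its H2-DMb1, at 708 and 905 CPM of all mouse UMIs, was above that of all members, and its Cxcl16, at 418 and 406 CPM, below. The part of the subset in the climbs was not tested. Cxcl16 was at 493, 509 and 742 CPM in the aged pool and 486, 652 and 865 CPM in the young pool. Plac8 ran the other way, at 2531, 1747 and 1659 CPM in the aged pool and 2662, 1666 and 1477 CPM in the young pool. Ccr2 showed no such order, at 958, 934 and 1001 CPM in the aged pool and 858, 773 and 902 CPM in the young pool, and neither did Apoe, at 8381, 8599 and 11450.4 CPM in the aged pool and 8556, 8371 and 6616 CPM in the young pool.

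**Figure D2:**
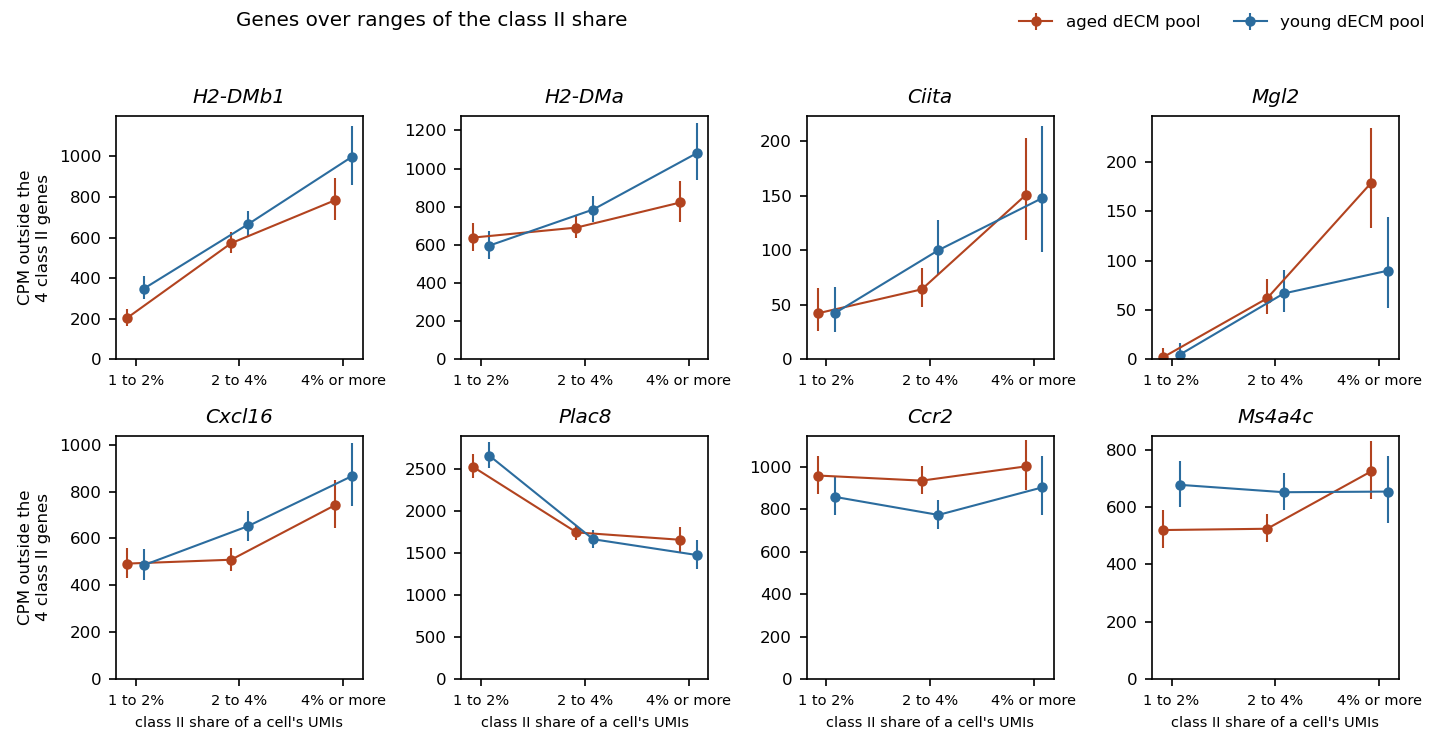
Levels of 8 genes over 3 ranges of the class II share of a cell's UMIs, in CPM of the UMIs outside the 4 class II genes, for the aged pool (left points) and the young pool (right points), with exact 95% Poisson intervals. H2-DMb1, Ciita, Mgl2 and Cxcl16 were highest at 4% or more in both pools, Plac8 was highest at 1 to 2%, and Ccr2 and Ms4a4c had no common order.

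Leiden clustering of the 364 cells, both pools together, gave 8 subsets, each with cells of both pools. Genes that set a subset apart were used to form it, so its levels are a description. Values in the next paragraphs are given for aged-pool and then young-pool cells. Subset 0 (43 and 30 cells) was led by Ly6c2, a surface protein of classical monocytes, at 286 and 292 CPM in it against 108 and 81.2 CPM in the other class II-high cells, with Irf7 at 509 and 675 CPM against 195 and 172 CPM and Ly6c1 at 261 and 353 CPM against 107 and 95.03 CPM. Ifi44l and Xaf1, interferon-induced genes, and Fos were also among its 6 leading genes. Subset 2 (40 and 27 cells) was led by Adgre4, an adhesion receptor, at 114 and 106 CPM against 11.0 and 15.6 CPM, Plac8 at 4607 and 4623 CPM against 1352 and 1458 CPM and Adgre5, which encodes CD97, at 366 and 332 CPM against 108 and 105 CPM, followed by Slc11a1, Gngt2 and Rasa3. Its Ace, an enzyme of nonclassical monocytes, was at 78.1 and 63.3 CPM, above 18.8 and 17.9 CPM over all members, while Cx3cr1, another nonclassical marker, was at 81.6 and 111 CPM, below 153 and 161 CPM.

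Subset 1 (37 and 30 cells) was led by cytokine genes. Tnf was at 462 and 355 CPM against 82.1 and 71.1 CPM, Il1a at 372 and 628 CPM against 73.8 and 65.4 CPM and Cxcl1, a neutrophil chemoattractant, at 2590.4 and 1699 CPM against 530.2 and 258 CPM, each as subset against the other class II-high cells. Acp5 and Syngr1 led with them, as did Arg1, a gene of the rule. Il1b reached 13675 and 13864 CPM. Subset 3 (38 and 25 cells) was led by interferon-induced genes, with Rsad2, an antiviral enzyme, at 523 and 392 CPM against 21.9 and 38.9 CPM, Ifit3 at 138 and 193 CPM against 15.5 and 22.97 CPM and Ifit2 at 285 and 273 CPM against 26.8 and 34.5 CPM. The heat shock genes Hspa1a and Hspa1b stood beside them. Rsad2 had a UMI in 10 of the 38 aged-pool and 7 of the 25 young-pool cells of the subset. Apoe was at 16823 and 12118 CPM there and Il1b at 1962 and 3678 CPM, the lowest Il1b of the 4 largest subsets.

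Subset 4 (18 and 23 cells) went against the label. Cd209a was at 753 and 313 CPM against 23.5 and 55.4 CPM and Mgl2 at 393 and 199 CPM against 16.6 and 13.4 CPM, as subset against the other class II-high cells, and Cst3 was at 6615 and 6612 CPM. Apoe was at 34.4 and 55.0 CPM and Ms4a7 at 0 and 0 CPM, against 8787 and 7948 CPM and 204 and 181 CPM over all members. Its cDC2 list summed to 1249 and 769.9 CPM and its macrophage list to 241 and 249.6 CPM, while Ccr2 stayed at 413 and 439.9 CPM. Flt3 was limited by the rule and stood at 9.84 and 21.2 CPM. The proliferation gene Mki67 was at 83.6 and 97.3 CPM and Top2a at 73.8 and 106 CPM. Of its 6 leading genes by fold, Mmp3, Fbln2, Serpinf1 and Col5a2 are genes of fibroblasts whose UMIs lay mostly in 1 cell of each pool, 88.9% and 84.6% of Serpinf1 and 100% and 100% of Fbln2 in aged-pool and young-pool cells. Mgl2 and Mfge8 were the others, with 36.2% and 70.2% and 56.5% and 73.7% of their UMIs in 1 cell. The fibroblast list summed to 339 and 4192 CPM in the subset, and its part in these levels was not tested.

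Subset 5 (16 and 18 cells) was led by neutrophil genes, with G0s2 at 1708 and 1258 CPM against 63.4 and 27.5 CPM and Lcn2 at 198 and 152 CPM against 3.37 and 6.41 CPM, and its median share of S100a8 and S100a9 was 1.37% and 1.08%. Doublet scores of 0.25 or more were found in 4 and 4 of its cells, of 11 and 6 among all members. Whether these droplets held a neutrophil beside the monocyte was not tested. Subset 6 (6 and 4 cells) was led by Retnla, a secreted resistin-like protein of alternatively activated macrophages, at 4053 and 472 CPM, with Lpl, Fcrls, Ccl6, Fn1 and Mrc1. Fn1 was at 4887 and 6376 CPM against 583 and 597 CPM and Mrc1 at 814 and 1169 CPM against 109 and 63.2 CPM, while Ms4a4c was at 9.93 and 0 CPM and Apoe at 39.7 and 308 CPM. The macrophage list of subset 6 summed to 1033 and 1702 CPM and its classical monocyte list to 1828 and 2440 CPM, both below those of all members. Its cDC2 list was at 407 and 61.5 CPM. The label is uncertain for these few cells. Subset 7 (5 and 4 cells) had heat shock genes in front, Hspa1a at 7234 and 6931 CPM against 340.1 and 240.4 CPM.

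**Figure D3:**
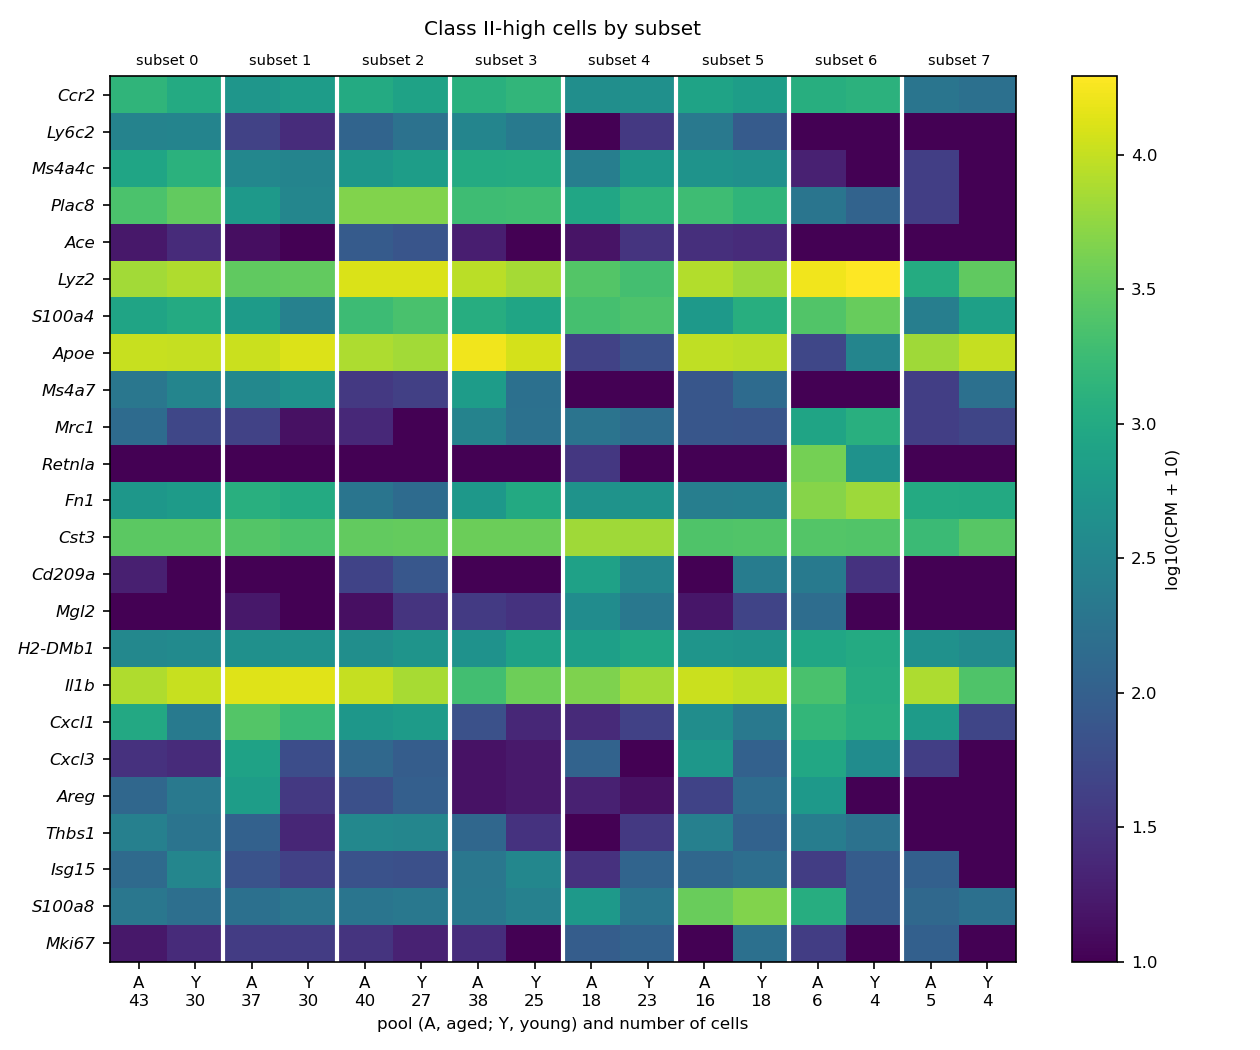
Level of 24 genes in the 8 subsets of class II-high cells as log10(CPM + 10), with the aged pool (A) left of the young pool (Y) in each pair and the number of cells under each column. Cd209a and Mgl2 were brightest in subset 4, where Apoe and Ms4a7 were near 0, S100a8 in subset 5 and Retnla in subset 6.

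Between the pools the class II-high cells were alike in most genes. A gene counted as measured with 50 CPM or more in whichever pool was higher and 100 UMIs in all. For genes named below for their ratio, an interval that leaves out 1 follows in part from that choice. Of 2917 such genes, 90 (3.09%) were at least 1.5-fold apart, 51 (1.75%) higher in aged-pool cells and 39 (1.34%) lower, and the median log2 ratio, aged over young, was 0.01. Some of these genes rested on few cells. In 34 of the 51 and 21 of the 39 at least 10 cells of each pool were needed to hold 50% of the pool's UMIs. A further setting, chosen after seeing the data, left out each gene's 5 highest cells of each pool. In it 54 and 14 of 2383 measured genes passed, 23 and 11 of them among the first 51 and 39.

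**Figure D4:**
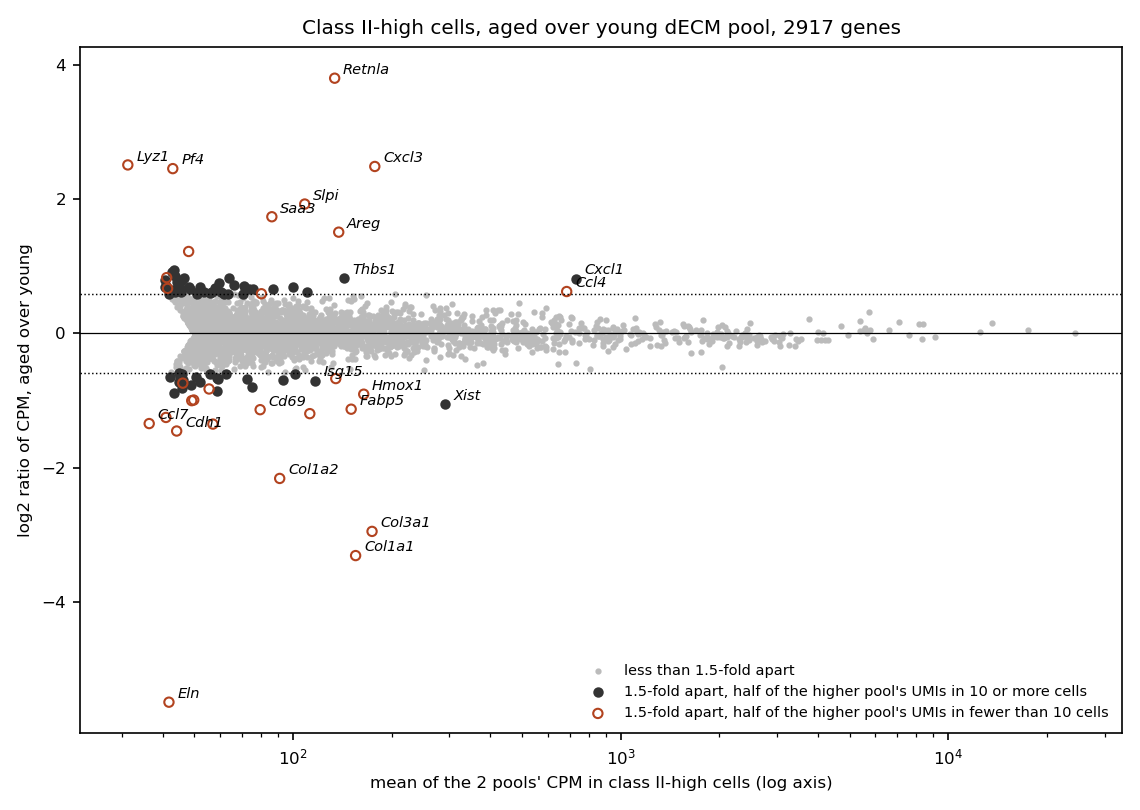
Log2 ratio of CPM in class II-high cells, aged over young pool, against the mean CPM of both pools (log axis) for 2917 measured genes, with dotted lines at 1.5-fold. Open circles are genes 1.5-fold apart with 50% of the UMIs of the higher pool in fewer than 10 cells, and filled dark points the others that were 1.5-fold apart. The largest ratios, such as Retnla and Eln, are open circles, while Xist, Cxcl1 and Thbs1 are filled.

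Cxcl3, a neutrophil chemoattractant, was at 302 CPM in the aged pool against 53.8 CPM in the young pool (ratio 5.61, 95% interval 4.35 to 7.32), with UMIs in 37 and 21 cells, and 50% of them in 4 and 5 cells. In the aged pool its 4 highest cells had 80, 65, 55 and 51 UMIs, in the young pool 13, 8, 7 and 5. Without the 5 highest cells of each pool the ratio was 5.11. By subset it was at 924 and 389.5 CPM in aged-pool and young-pool cells of subset 6, 779 and 49.6 CPM in subset 1, 545 and 94.3 CPM in subset 5 and 121 and 84.4 CPM in subset 2. Subset 6 was highest in both pools, while the order of the others differed. The pools were closer in these like classes, at 257 and 298 CPM in aged-pool and young-pool Ly6c2 monocytes and 56.0 and 49.0 CPM in C1q-high macrophages. In the cells set apart by Arg1 and Mmp12 the order was the other way, at 852 and 1160 CPM. The neutrophil-transcript-rich cells were at 1714 and 1321 CPM, and the part of their free RNA in the members' level was not tested.

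Cxcl1 was spread over more cells. It was at 933 CPM in the aged pool against 529 CPM in the young pool (ratio 1.76, 95% interval 1.61 to 1.93), with UMIs in 80 and 53 cells, and at 2.01 without the 5 highest. Its pools were close in Ly6c2 monocytes, at 537 and 469.7 CPM, and in C1q-high macrophages, at 539 and 552 CPM. In the cells set apart by Arg1 and Mmp12 Cxcl1 was at 2016 and 2580 CPM, and in neutrophil-transcript-rich cells at 246 and 175 CPM. Areg, amphiregulin, a ligand of the epidermal growth factor receptor, was at 204 CPM in the aged pool against 71.7 CPM in the young pool (ratio 2.85, 95% interval 2.25 to 3.63). Its UMIs came from 25 and 14 cells, and 2 cells held 50% or more of them in each pool, with a ratio of 4.36 without the 5 highest. In aged-pool and young-pool Ly6c2 monocytes Areg was at 191 and 35.6 CPM, and the order of the pools was the other way in C1q-high macrophages, at 26.1 and 44.9 CPM, and in the cells set apart by Arg1 and Mmp12, at 65.2 and 286 CPM. Thbs1, the matrix protein thrombospondin 1, was at 184 CPM in the aged pool against 104 CPM in the young pool (ratio 1.77, 95% interval 1.44 to 2.19) from 64 and 39 cells. Ccl4 was at 831 CPM in the aged pool against 539 CPM in the young pool, a ratio of 1.54, and Ccl3 at 306 CPM in the aged pool against 205 CPM in the young pool, a ratio of 1.49, just under the threshold. Over all measured genes, 1.75% were higher and 1.34% lower. Of 24 measured inflammatory cytokines and chemokines, 5 were higher, Cxcl3, Pf4, Areg, Cxcl1 and Ccl4, and 1 was lower, Ccl7. The list's median log2 ratio was 0.16 beside 0.01 over all measured genes. The most abundant of them were less than 1.5-fold apart, with Il1b at 8050.5 CPM in the aged pool against 8535 CPM in the young pool and Cxcl2 at 6383 CPM in the aged pool against 5107 CPM in the young pool.

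The other large ratios differed in how many cells they rested on. Retnla was at 250.3 CPM in the aged pool against 17.9 CPM in the young pool, but in the aged pool its UMIs were 265, 92, 51 and 5 in 4 cells and in the young pool 21 and 2 in 2 cells. Lyz1 had 81 of its 88 aged-pool UMIs in 1 cell and a ratio of 0.777 without the 5 highest cells. Pf4, platelet factor 4, was at 72.7 CPM in the aged pool against 13.3 CPM in the young pool, and 2 aged-pool cells with 43 and 42 of 120 UMIs held over 50%. Without the 5 highest cells of each pool the ratio of Pf4 was 1.90. Slpi, an inhibitor of leukocyte elastase, was at 172 CPM in the aged pool against 45.2 CPM in the young pool and Saa3, an acute phase protein, at 133 CPM in the aged pool against 39.8 CPM in the young pool, with 50% of the UMIs in 2 aged-pool cells for Slpi and 3 for Saa3. Without the 5 highest cells the ratio was 2.01 for Slpi and 3.66 for Saa3, both past 1.5-fold. Both were far higher in Ly6c2 monocytes, where the pools were close: Slpi at 895 and 744 CPM and Saa3 at 683 and 702 CPM in aged-pool and young-pool monocytes. Fcrls was also on the list, at 67.3 CPM in the aged pool against 28.9 CPM in the young pool, with 57 aged-pool UMIs in 1 cell and a ratio of 0.864 without the 5 highest, as was Arg1, whose level the rule limits, at 52.7 CPM in the aged pool against 29.6 CPM in the young pool.

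Rb1, the retinoblastoma cell cycle brake, was at 57.0 CPM in the aged pool against 29.6 CPM in the young pool (ratio 1.92, 95% interval 1.31 to 2.88) from 72 and 28 cells, with at most 3 UMIs in a cell. Krt80 was at 56.4 CPM in the aged pool against 31.2 CPM in the young pool and 4932438A13Rik at 55.8 CPM in the aged pool against 29.6 CPM in the young pool, ratios of 1.81 and 1.88. Their UMIs were spread over 54 and 28 cells for Krt80 and 61 and 30 cells for 4932438A13Rik. Rb1, Krt80 and 4932438A13Rik reached the filter of 50 CPM only in the aged pool and were named for their ratios. An interval above 1 therefore follows in part from the choice, and none of them would pass a filter of 100 CPM.

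Among genes lower in aged-pool cells, the largest ratios again came from single cells. Eln, Col1a1, Col3a1, Col1a2, Dcn and Sparc, genes of fibroblasts and their matrix, had most of their young-pool UMIs in 1 cell, from 90.0% for Sparc to all 105 for Eln. Col1a1 was at 28.5 CPM in the aged pool against 282 CPM in the young pool. Without each gene's highest cell in each pool, the ratios of Col1a1, Col3a1, Col1a2, Dcn and Sparc were above 1. Fabp5 was at 94.5 CPM in the aged pool against 207 CPM in the young pool (ratio 0.457, 95% interval 0.373 to 0.560), 50% of it in 6 and 3 cells, and at 0.808 without the 5 highest. Ccl7, a monocyte chemoattractant, was at 20.6 CPM in the aged pool against 52.2 CPM in the young pool, from 14 and 11 cells, with a ratio of 0.999 without the 5 highest.

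Hmox1, heme oxygenase 1, was at 115 CPM in the aged pool against 214 CPM in the young pool (ratio 0.534, 95% interval 0.441 to 0.645), with 57 of the young-pool UMIs in 1 cell and a ratio of 0.714, short of 1.5-fold, without the 5 highest. Its level was also lower in aged-pool cells of these like classes, at 424 and 648 CPM in aged-pool and young-pool C1q-high macrophages and 80.2 and 97.99 CPM in Ly6c2 monocytes. Cd69, an early activation antigen, was at 49.7 CPM in the aged pool against 109 CPM in the young pool (ratio 0.455, 95% interval 0.342 to 0.602) from 52 and 51 cells, and at 0.547 without the 5 highest. Cdh1, E-cadherin, was at 23.6 CPM in the aged pool against 64.7 CPM in the young pool. Procr, the protein C receptor, was at 24.2 CPM in the aged pool against 57.7 CPM in the young pool. Both were among the 12 leading genes of subset 4, which held 18 aged-pool and 23 young-pool cells. Within aged-pool and young-pool cells of subset 4 Cdh1 was at 83.6 and 216 CPM and Procr at 93.4 and 190.4 CPM. The pools had the same order in the other class II-high cells, with Cdh1 at 15.2 and 30.6 CPM and Procr at 14.5 and 27.7 CPM. For Procr, 50% of the UMIs lay in 2 and 3 cells, and without the 5 highest the ratios were 0.370 for Cdh1 and 0.466 for Procr. Of 22 measured interferon response genes, 2 were lower and 1 higher, beside 1.34% and 1.75% of all measured genes. Isg15 was 1 of the 2, at 89.1 CPM in the aged pool against 145 CPM in the young pool (ratio 0.614, 95% interval 0.491 to 0.767). Oasl1 alone was higher, at 96.4 CPM in the aged pool against 63.9 CPM in the young pool with 55 aged-pool UMIs in 1 cell, and the list's median log2 ratio was -0.17. The most abundant of the list, Ifi27l2a, was at 2296 CPM in the aged pool against 2376 CPM in the young pool.

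Xist differed in many cells. The RNA that coats the inactive X chromosome was at 189 CPM in the aged pool against 393 CPM in the young pool (ratio 0.481, 95% interval 0.416 to 0.555), with a UMI in 34.0% and 66.5% of aged-pool and young-pool class II-high cells. The same direction held in the other host cells: aged-pool and young-pool C1q-high macrophages were at 185 and 345 CPM, Ly6c2 monocytes at 234 and 344 CPM, and neutrophil-transcript-rich cells at 77.3 and 163 CPM. The Y-linked genes Ddx3y, Eif2s3y, Uty and Kdm5d summed to 10 and 3 UMIs in the class II-high cells of the aged and young pools and 226 and 90 in the neutrophil-transcript-rich cells. In Ly6c2 monocytes they summed to 32 and 2 UMIs (16.6 and 1.19 CPM) and in C1q-high macrophages to 28 and 11 UMIs (6.15 and 3.03 CPM). The cells set apart by Arg1 and Mmp12 had 3 and 2 UMIs. The labels give neither the sex nor the number of hosts per pool, and the matrix age and the host animals of a pool cannot be told apart here. The design text speaks of both sides of the same mouse, but whether both pools hold cells of the same hosts is not given, and these values differ between the pools.

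In the other lists few or no genes passed, beside 1.75% higher and 1.34% lower over all measured genes. None of 15 measured class II presentation genes (4 of them in the rule), 16 class I presentation genes or 12 costimulation and checkpoint genes was 1.5-fold apart, with H2-DMb1 at 487 CPM in the aged pool against 590.3 CPM in the young pool, B2m at 2147 CPM in the aged pool against 2016 CPM in the young pool and Cd86 at 183 CPM in the aged pool against 200.4 CPM in the young pool. None of 8 nonclassical monocyte, 16 monocyte-derived dendritic, 26 receptor, 19 pattern recognition, 27 immediate early and 5 cell cycle genes passed either. Of 18 classical monocyte genes only Thbs1 passed, and Ccr2 was at 926 CPM in the aged pool against 799 CPM in the young pool. Of 23 macrophage differentiation genes Pf4 was higher and Fabp5 and Hmox1 lower, and Spp1, osteopontin, was at 662 CPM in the aged pool against 951 CPM in the young pool, a ratio of 0.696. Of 17 complement and Fc receptor genes Cd93 was higher, at 59.4 CPM in the aged pool against 37.4 CPM in the young pool. Pfkl was the 1 lower gene of 21 hypoxia and glycolysis genes, whose median log2 ratio was -0.14, Fabp5 the 1 lower of 14 lipid handling genes, and Thbs1 and Sparc the 1 higher and 1 lower of 21 matrix and protease genes.

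**Figure D5:**
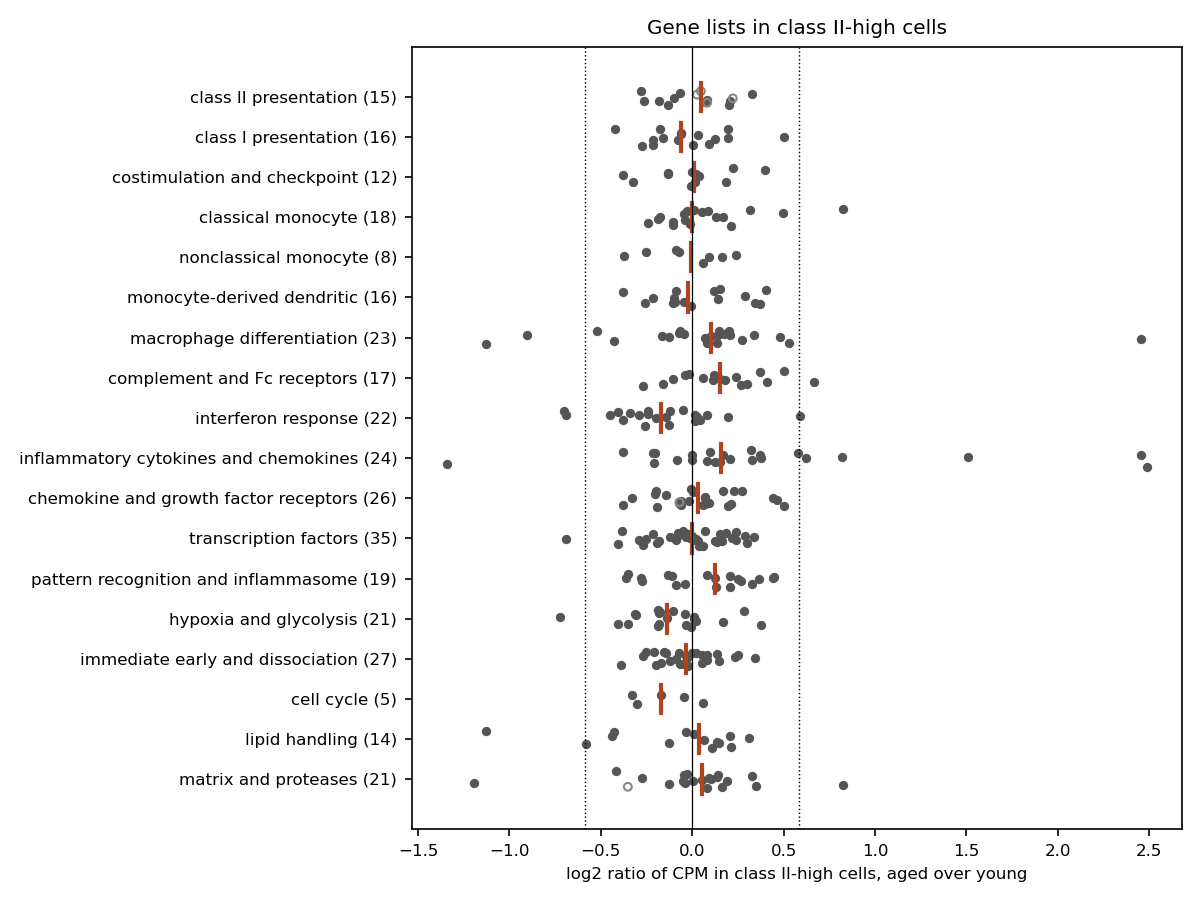
Log2 ratio of CPM in class II-high cells, aged over young pool, for the measured genes of 18 lists, with the number of genes in brackets, each list's median as a bar and dotted lines at 1.5-fold. Open points are genes of the selection rule. All list medians lie between -0.17 and 0.16, inside the dotted lines.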

How the data were processed

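The deposited values are counts: whole-number UMIs per gene and barcode in 1 matrix per library over 36601 human and 32285 mouse genes and 52 antibody features, which the authors made with Cell Ranger 6.0.0 against GRCh38 and mm10, per the submitters' processing notes. Library chemistry was 10x 3' v3.1, per the labels' protocols.

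Barcodes were filtered as the report states, UMIs of the members of each pool were summed, and levels are CPM of mouse UMIs. A ratio is aged over young with an exact conditional binomial interval, a level has an exact Poisson interval and a share a Clopper-Pearson interval, all at 95% and for counting error only. With 1 library per group no test was made, and pool, hosts and matrix age cannot be told apart. The members and the gene lists were chosen with earlier results of these data known.

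Genes were named by rule: the 12 highest and 12 lowest ratios among measured genes at least 1.5-fold apart, the 12 and 8 largest folds on either side against a like class, 6 per subset, and for each list its defining genes, its 2 most abundant and its ends. Other genes named were chosen after their values were seen. The automatic threshold of Scrublet called 0 cells, so the caller did not work and no doublets were removed; cells with a score of 0.25 or more were left out as an alternative. Antibody features were used only for the tags described at the end. Python 3.11.15, scanpy 1.11.5, leidenalg 0.10.2, scipy 1.17.1 and edgeR 4.0.16 (TMM factors only) were used. The count steps were tested on simulated sums drawn with counting error only. Those sums hold no spread between cells, so the test does not cover genes whose UMIs lay in few cells. A few genes are not reported here.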

Additional observations from a re-analysis of the deposited data

Results flagged for a closer look

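Human hashing antibodies, which should bind the human tumour cells, gave a signal in mouse cells that no comparison above uses. One human hashing tag was dominant in 103 of the 203 aged-pool class II-high cells and 46 of the 161 young-pool cells. It was H-HTO-2 in 98 of the 103 and H-HTO-4 in 46 of the 46, and the median tag count was 280 and 248 UMIs per cell in the aged and young pools. The 38 surface-protein tags summed to 9 and 4 UMIs over the same cells. What the tags mark is not given in the labels, and the source of the signal was not tested.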

How the results depend on the processing

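No paired analysis was possible because each group has 1 library. The share of class II-high cells was 3.85% and 3.35% in the aged and young pools with mouse purity of 0.98, 3.64% and 3.099% with at least 3000 UMIs, and 1.63% and 1.26% with class II at 2% or more; the share ratio turned to 0.960 over cells below 3% S100a8 and S100a9. Genes at least 1.5-fold higher and lower numbered 11 and 12 of 1520 measured genes with a filter of 100 CPM. With 20 CPM and 20 UMIs they numbered 258 and 226 of 5424, beside 51 and 39 of 2917 in the main setting. With class II at 2% or more 77 of 2726 measured genes were higher and 52 lower. Of the 51 and the 39, 25 and 18 were still among them. Without the 5 highest cells, chosen after seeing the data, 54 of 2383 measured genes were higher and 14 lower, with 23 and 11 still among them. Ratios of matrix genes turned above 1 in 4 ways. With class II at 2% or more Col1a1 was 1.91, Col3a1 1.80, Col1a2 6.78, Dcn 3.15 and Sparc 2.90, and Arg1 turned to 0.787. Without the highest cell they were 1.43, 1.41, 2.72, 2.50 and 2.18, with Lyz1 at 0.680. Without the 5 highest they were 1.22, 1.55, 3.26, 3.26 and 1.67, with Lyz1 at 0.777 and Fcrls at 0.864. Without subset 4 they were 1.33, 1.42, 2.57, 2.44 and 2.44. TMM and median-of-ratios scaling gave 58 and 38 and 55 and 38 genes, each of 2917. The cause of each of these moves beyond the cells left out was not tested. Between the pools, genes under 50 CPM in the higher pool were not compared at this depth.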
